A study of Mus musculus with 15 samples.

Results

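The genes followed here are 10 members of the TGF-beta and activin pathway: the TGF-beta ligands Tgfb1, Tgfb2 and Tgfb3, the activin subunit Inhba, the receptors Tgfbr1, Tgfbr2 and Tgfbr3, the signal transducer Smad3, its inhibitor Smad7 and the matrix target Tgfbi. They were chosen by name, as the rows whose Ensembl transcript maps to these genes, and all 10 of the 10 listed genes had exactly 1 row among the 12089 transcripts of the table. After culture, Tgfb3 and Inhba rose, whereas the 3 receptors and Smad3 fell at all 4 culture times.

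TGF-beta and activin are secreted dimers that bind a type II receptor, which activates a type I receptor, which in turn phosphorylates Smad2 and Smad3. The phosphorylated Smads join Smad4 and enter the nucleus, and they induce genes of the matrix and cytoskeleton as well as the inhibitor Smad7, which acts back on the receptors. In the developing tooth, activin from the mesenchyme is required for incisors and lower molars to form, and TGF-beta ligands are known for roles in mesenchymal growth and matrix formation.

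RNA-seq covered mouse dental mesenchymal cells (mDMCs) of the ICR strain, obtained from molar germs at embryonic day 14.5 by trypsin digestion of dispase-separated mesenchyme. The study asked how culture in vitro alters transcription in these cells. There were 3 libraries of freshly isolated mDMCs (0 h), 2 of mDMCs cultured for 12 h, 3 each of mDMCs cultured for 24, 36 and 48 h, and 1 library of dental mesenchymal tissue. All cultured groups grew in medium with FBS, and no treatment or genetic change set them apart. The sources used here do not say whether replicates came from separate litters or cultures, so the p-values measure only the spread between these libraries. Serum, plating and time away from the tissue all changed between 0 h and culture, and their parts in a change cannot be told apart.

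The values are normalized scores that the authors brought to one distribution before deposition. Each of the 15 libraries has 721 as its median and 127101 as its maximum, and depth is unknown. A gene can therefore have the very same score in several libraries, as Inhba did with 6719 in 2 of them. Replicates 1 and 2 at 36 h differed by a root mean square of 0.11 on the log2 scale, against 0.23 to 0.465 for the other pairs of replicates, and both were kept. Replicate 3 at 0 h and replicate 1 at 12 h held more signal on long transcripts than the rest of their groups. The log2 score of transcripts over 6 kb relative to those under 2 kb deviated from the group mean by 0.225 and 0.203 in these libraries. All 11 dental mesenchyme markers were present in the table, and 7 of them were lower at 48 h. Of all transcripts tested, 34.0% were lower at 48 h, and the marker counts here stand beside that share. Endothelial markers fell in 9 of 9, from sums of 10059 to 12177 at 0 h to sums of 603 to 996 in the cultured libraries, and Cldn5 was listed at 0 in 10 of 11 cultured libraries. Red cell markers fell in 8 of 8, and of 10 macrophage markers only 5 had a row, 4 of them lower at 48 h. Some of these markers reached the low-score filter (a score of about 21.4) in fewer than 2 libraries at 48 h. They were Cldn5, Tie1, Cdh5, Esam and Pecam1 of the endothelium, C1qa of the macrophages and all red cell markers but Hbb-bs. Their calls set a high group against scores under the filter and carry no weight. Epithelial markers had a sum of 14067 in replicate 1 at 0 h, against 1514 and 1883 in the other replicates and 91 to 2732 in culture. In such bulk samples, fewer cells of a type and less RNA per cell cannot be told apart.

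Promoter sequences were taken for 7 of the 10 genes from RefSeq (GRCm38.p6), and none was used for Tgfb3, Tgfbr3 and Smad7. The 250 bases before the start site are shown for a ligand that rose, for a receptor that fell and for the ligand whose window held a Smad-binding motif. Capitals mark that motif, and sequences run 5′ to 3′ on the strand of the gene. The windows are chr13:16011601-16011850 (plus strand) for Inhba, chr4:47352972-47353221 (plus strand) for Tgfbr1 and chr1:186705990-186706239 (minus strand) for Tgfb2.
Inhba: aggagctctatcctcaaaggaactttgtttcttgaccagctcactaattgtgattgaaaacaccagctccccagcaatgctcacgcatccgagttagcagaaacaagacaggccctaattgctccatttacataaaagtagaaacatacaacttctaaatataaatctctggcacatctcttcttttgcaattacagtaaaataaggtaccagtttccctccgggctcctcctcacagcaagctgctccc
Tgfbr1: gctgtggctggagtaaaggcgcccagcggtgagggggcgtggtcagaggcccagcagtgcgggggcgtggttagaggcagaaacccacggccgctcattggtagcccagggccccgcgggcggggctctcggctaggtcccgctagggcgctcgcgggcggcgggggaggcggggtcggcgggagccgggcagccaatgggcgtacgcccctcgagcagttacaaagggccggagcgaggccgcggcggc
Tgfb2: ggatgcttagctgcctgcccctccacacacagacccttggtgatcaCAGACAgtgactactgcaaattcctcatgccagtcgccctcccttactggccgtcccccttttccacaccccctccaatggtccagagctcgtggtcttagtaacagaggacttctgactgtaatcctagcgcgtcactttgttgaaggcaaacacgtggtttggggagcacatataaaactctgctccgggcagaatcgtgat

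The motifs searched on both strands were the Smad-binding element CAGACA (17.1% of 32851 RefSeq promoters of the same length hold it), the Smad-binding palindrome GTCTAGAC (0.2% hold it) and the AP-1 site TGANTCA (6.7% hold it). The letters of both Smad motifs can overlap. The Smad-binding element lay at -204 to -199 from the start of Tgfb2, and also in the promoter of a second Tgfbr1 start, which is not that of the transcript in the table. No other window of the 7 genes held any of the 3 motifs. The windows differed in base composition, with 43.2% G and C for Inhba, 53.6% for Tgfb2 and 74.8% for Tgfbr1.

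Tgfb3, the ligand known for palate fusion, lies at chr12:86056745-86079041 (GRCm38, minus strand, 7 exons). Its normalized score was 3366, 3591 and 3227 at 0 h, 7604 and 8752 at 12 h, 18563, 16542 and 9424 at 24 h, 13679, 13304 and 15625 at 36 h, 10111, 14408 and 9610 at 48 h, and 4384 in the tissue. All 11 cultured libraries lay above all freshly isolated libraries, and the tissue lay between them. The fitted change from 0 h was 2.41-fold at 12 h, 4.20-fold at 24 h, 4.18-fold at 36 h and 3.30-fold at 48 h. On the log2(score + 1) scale this was 2.07 ± 0.22 (SE) at 24 h, with a limma adjusted p of 2.63e-06, and 1.72 ± 0.22 at 48 h, with an adjusted p of 1.14e-05. The log2 scale used here understates the change of genes with low scores. Replicate 3 at 24 h was the low library for Tgfb3, and it also held the highest dental mesenchyme marker sum (95709) and the lowest muscle marker sum (333) of the 24 h libraries. Most of that dental excess was Prrx1 alone, at 70675 against 31853 and 36409, and the 10 other dental markers summed to 25034 against 20352 and 22532. The part of these markers in the Tgfb3 score was not tested.

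Inhba encodes the subunit of activin A (chr13:16011851-16031621, plus strand, 5 exons). It scored 707, 1220 and 1803 at 0 h, 4241 and 3101 at 12 h, 3452, 6719 and 6719 at 24 h, 2791, 2715 and 5449 at 36 h, 1665, 5736 and 5363 at 48 h, and 948 in the tissue. In 10 of 11 cultured libraries Inhba was above the 0 h range, the exception being replicate 1 at 48 h. The rise was 3.13-fold at 12 h, 4.64-fold at 24 h, 2.98-fold at 36 h and 3.20-fold at 48 h, with limma adjusted p of 0.0185, 0.00121, 0.0102 and 0.00695. The calls at 12 and 36 h depended on single libraries. Without replicate 1 at 0 h the adjusted p was 0.067 at 12 h and 0.05 at 36 h, without replicate 1 at 12 h it was 0.113 at 12 h, and without replicate 3 at 36 h it was 0.0507 at 36 h. The libraries low in Inhba within their groups (replicate 1 at 24 h, replicates 1 and 2 at 36 h and replicate 1 at 48 h) had muscle marker sums of 2018, 2638, 2913 and 1439. The others of these groups had 1218, 333, 528, 1046 and 601. At 12 h the order was the other way, with 903 in replicate 2, the lower in Inhba, and 967 in replicate 1. The sums rest on Myog, Des and Ttn, as only 3 of 5 listed muscle markers had a row. Whether muscle-lineage RNA had a part in the Inhba scores was not tested.

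Tgfb1, the TGF-beta ligand best known for restraining immune cells (chr7:25687002-25705077, plus strand, 7 exons), had the lowest score per kb of the 10 genes at 0 h. Its scores were 56, 72 and 149 at 0 h, 554 and 221 at 12 h, 152, 194 and 328 at 24 h, 127, 109 and 118 at 36 h, 114, 183 and 174 at 48 h, and 83 in the tissue. The 12 h and 24 h libraries lay above the 0 h range, whereas the 36 h and 48 h libraries overlapped it. Tgfb1 rose 4.11-fold at 12 h (log2 change 2.04 ± 0.45 SE, limma adjusted p = 0.00181) and 2.51-fold at 24 h (adjusted p = 0.0108). The size at 12 h rested on its 2 libraries, as the log2 change was 1.38 without replicate 1 and 2.70 without replicate 2. At 36 and 48 h the changes of 0.48 ± 0.40 and 0.86 ± 0.40 did not pass the test, with adjusted p of 0.307 and 0.0728. The 24 h call was lost without replicate 1 at 0 h (adjusted p = 0.0502) or without replicate 3 at 24 h (adjusted p = 0.0527). At 48 h a call was gained without replicate 3 at 0 h (log2 change 1.26, adjusted p = 0.0118) and without replicate 1 (adjusted p = 0.0473) or replicate 2 (adjusted p = 0.047) at 12 h. The Tgfb1 transcript is the shortest of the 10, at 2.175 kb. Its highest score at 0 h and at 12 h was in the library with more signal on long transcripts. With both such libraries left out, a choice made after seeing the data, the calls at 36 h (adjusted p = 0.0252) and 48 h (adjusted p = 0.00381) were gained. Whether signal on long transcripts had a part in the Tgfb1 score was not tested.

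Tgfb2, a ligand needed for heart and craniofacial development (chr1:186622792-186705989, minus strand, 7 exons), did not pass the test at any culture time. It scored 783, 776 and 864 at 0 h, 1073 and 795 at 12 h, 1556, 1274 and 649 at 24 h, 1145, 1161 and 1139 at 36 h, 593, 1215 and 602 at 48 h, and 886 in the tissue. Only the 36 h libraries lay wholly above 0 h. The log2 changes were 0.20 ± 0.34, 0.43 ± 0.30, 0.51 ± 0.30 and -0.09 ± 0.30 at 12, 24, 36 and 48 h, with limma adjusted p between 0.151 and 0.8. Without replicate 3 at 24 h, where Tgfb2 was lowest of that group, the 24 h change was 0.80 with a limma adjusted p of 0.0161. With 0 and 36 h alone fitted, the 36 h change had a limma adjusted p of 0.000745. That value rests on the small spread at 36 h (SD 11.4), where replicates 1 and 2 were the near-identical pair.

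**Figure D1:**
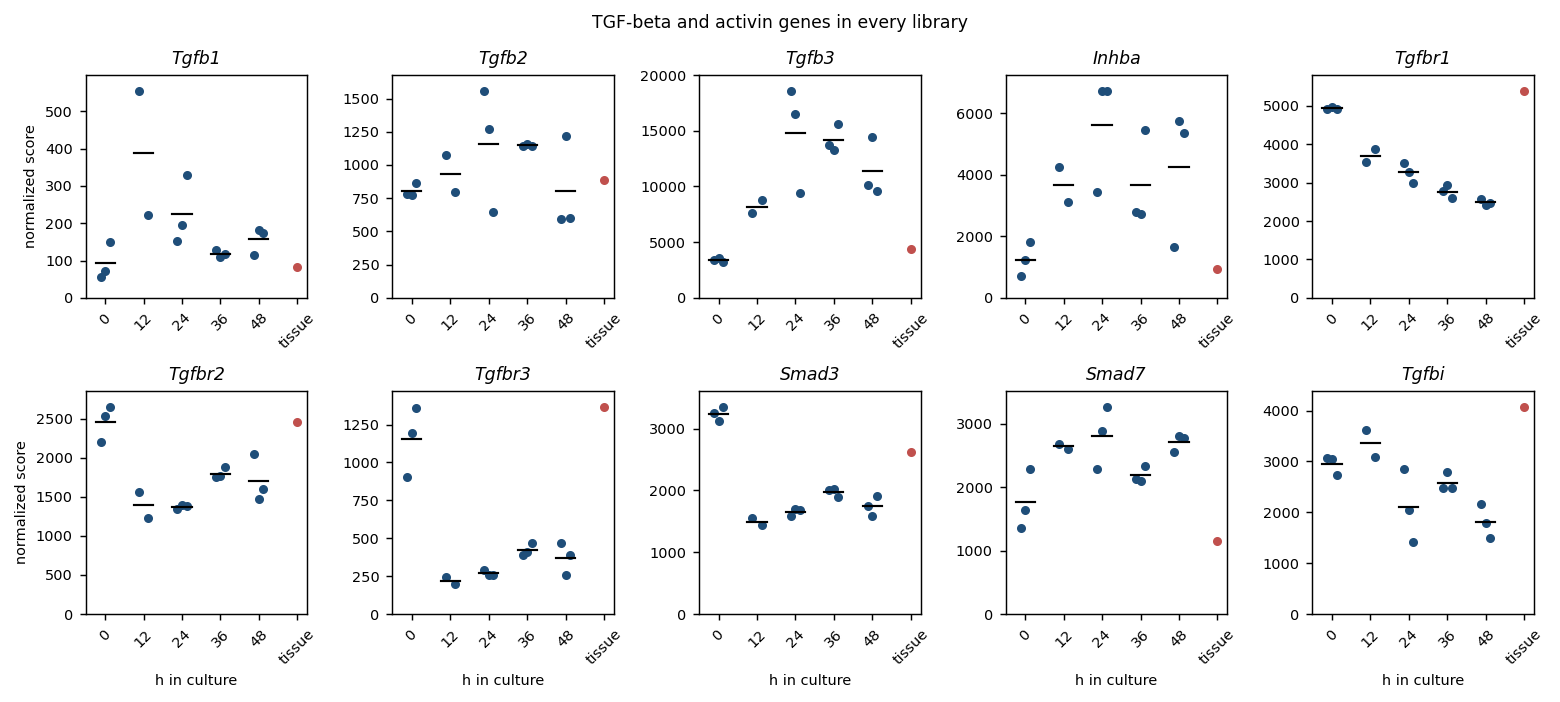
Normalized score (vertical axes, from 0) of each of the 10 genes against hours in culture, with the tissue at the right; points are libraries (blue mDMCs, red tissue) and black lines are group means. The 11 cultured points of Tgfb3 lie above its 0 h points, and those of Tgfbr1, Tgfbr2, Tgfbr3 and Smad3 lie below theirs.

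Levels of the ligands were set side by side as scores per kb of transcript. Whether these rank-based scores scale with transcript length was not tested. Tgfb3 had 1003 ± 54.3 (SD, n = 3) per kb at 0 h, against 158 ± 9.56 for Tgfb2 and 42.5 ± 22.9 for Tgfb1, and their ranges did not overlap. At 48 h Tgfb3 stood at 3363 ± 780 per kb, ahead of Tgfbi at 670 and Inhba at 666, whose ranges overlapped each other. The share of Tgfb3 in the per-kb sum of the 3 TGF-beta ligands was 83.3 ± 2.8% at 0 h, 82.9 and 91.0% in the 12 h libraries, 92.7 ± 1.5% at 24 h and 93.7 ± 0.9% at 48 h, while the tissue held 86.0%. The share of Tgfb2 was 13.1 ± 1.0% at 0 h and 4.2 ± 0.8% at 48 h. Not divided by length, the shares were 79.0 ± 2.6% at 0 h and 92.4 ± 1.2% at 48 h for Tgfb3, and 18.8 ± 1.5% and 6.3 ± 1.2% for Tgfb2.

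**Figure D2:**
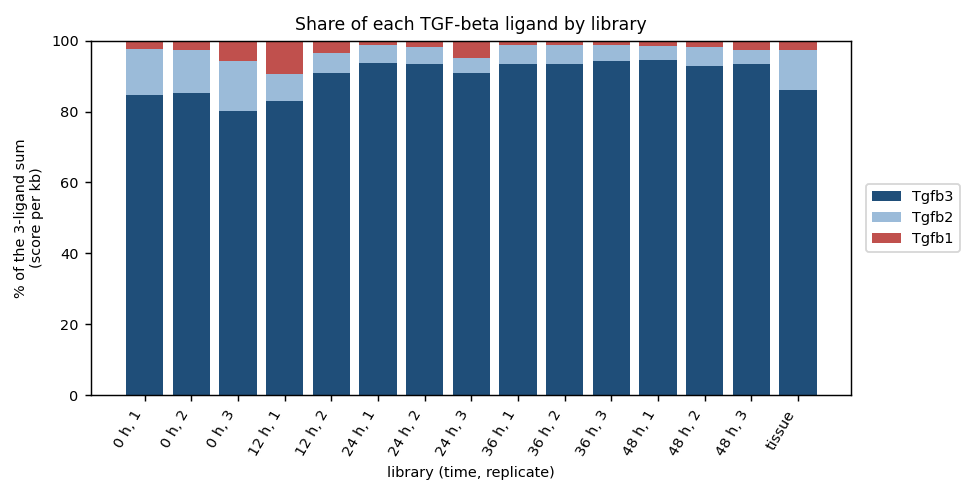
Share (%) of Tgfb3, Tgfb2 and Tgfb1 in the sum of their scores per kb (vertical axis, 0 to 100) for each of the 15 libraries (horizontal axis, time and replicate). Tgfb3 holds 80.1 to 85.2% at 0 h and 93.0 to 94.7% at 48 h.

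The receptors moved in the opposite direction to Tgfb3 and Inhba. Tgfbr1 encodes the type I receptor (chr4:47353222-47414931, plus strand, 9 exons) and scored 4933, 4969 and 4933 at 0 h, 3537 and 3869 at 12 h, 3520, 3290 and 2996 at 24 h, 2774, 2928 and 2601 at 36 h, 2580, 2431 and 2459 at 48 h, and 5388 in the tissue. All 11 cultured libraries were below 0 h. Its log2 change from 0 h was -0.42, -0.60, -0.84 and -0.99 at 12, 24, 36 and 48 h (SE 0.08 at each time), with limma adjusted p of 0.000949, 1.39e-05, 5.96e-07 and 1.24e-07. Between 24 and 48 h Tgfbr1 was the one member that passed the test in this fit, at -0.39 ± 0.08 and an adjusted p of 0.00316. Because the 24 h and 48 h replicate numbers deviated together, a fit with the number as a block was also made, and it gave an adjusted p of 0.0179.

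Tgfbr2, the type II receptor that binds TGF-beta first (chr9:116084293-116175265, minus strand, 8 exons), also fell. Its scores were 2199, 2534 and 2646 at 0 h, 1556 and 1223 at 12 h, 1347, 1401 and 1376 at 24 h, 1749, 1764 and 1878 at 36 h, 2050, 1469 and 1597 at 48 h, and 2463 in the tissue. No cultured library reached the lowest 0 h library. The fall was 1.78-fold at 12 h, 1.78-fold at 24 h, 1.37-fold at 36 h and 1.45-fold at 48 h, with limma adjusted p of 0.00022, 5.64e-05, 0.00555 and 0.00163.

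Tgfbr3, the co-receptor betaglycan that presents TGF-beta2 and binds inhibin (chr5:107106570-107289629, minus strand, 17 exons), had the largest fitted fall of the 10 genes at each time. It scored 905, 1191 and 1358 at 0 h, 243 and 198 at 12 h, 290, 257 and 260 at 24 h, 392, 411 and 470 at 36 h, 467, 257 and 387 at 48 h, and 1364 in the tissue. The cultured and the freshly isolated libraries did not overlap. Its fall was 5.16-fold at 12 h, 4.22-fold at 24 h, 2.68-fold at 36 h and 3.15-fold at 48 h, with limma adjusted p from 1.35e-06 to 3.44e-05. Endothelial and red cell marker sums fell over the same times, as given above, and their part in the receptor changes was not tested.

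Smad3, the receptor-activated Smad of TGF-beta and activin (chr9:63646767-63757994, minus strand, 9 exons), scored 3250, 3123 and 3346 at 0 h, 1549 and 1434 at 12 h, 1587, 1692 and 1681 at 24 h, 2001, 2026 and 1900 at 36 h, 1751, 1587 and 1905 at 48 h, and 2620 in the tissue. The 11 cultured libraries lay below 0 h, and the tissue lay between. The fall was 2.17-fold at 12 h, 1.96-fold at 24 h, 1.64-fold at 36 h and 1.86-fold at 48 h, and limma adjusted p ranged from 2.04e-07 to 2.78e-06.

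Smad7, which recruits ubiquitin ligases to the type I receptor, moved up. It scored 1355, 1640 and 2288 at 0 h, 2688 and 2603 at 12 h, 2295, 2879 and 3261 at 24 h, 2130, 2104 and 2327 at 36 h, 2562, 2801 and 2778 at 48 h, and 1159 in the tissue. The 12, 24 and 48 h libraries were above the 0 h range, replicate 1 at 24 h only just, and the 36 h libraries overlapped it. Smad7 rose by 0.62 ± 0.18, 0.69 ± 0.16 and 0.66 ± 0.16 on the log2 scale at 12, 24 and 48 h, with limma adjusted p of 0.0105, 0.00213 and 0.00283. The 36 h change of 0.35 ± 0.16 did not pass (adjusted p = 0.0746), but it did without replicate 3 at 0 h (0.55, adjusted p = 0.0028). The 12 h call was lost without replicate 1 at 12 h, at an adjusted p of 0.0561, and when 0 and 12 h alone were fitted, at 0.0621.

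Tgfbi, a secreted matrix protein induced by TGF-beta (chr13:56609586-56639358, plus strand, 17 exons), was lower at 24 and 48 h. Its scores were 3071, 3045 and 2743 at 0 h, 3617 and 3093 at 12 h, 2851, 2055 and 1409 at 24 h, 2481, 2795 and 2481 at 36 h, 2173, 1789 and 1489 at 48 h, and 4066 in the tissue. At 48 h all libraries were below 0 h, whereas at 24 and 36 h the groups overlapped. Tgfbi fell 1.64-fold at 48 h (log2 change -0.72 ± 0.20, limma adjusted p = 0.00671) and 1.46-fold at 24 h (-0.55 ± 0.20, adjusted p = 0.0305). The 24 h call was lost without replicate 3 at 24 h (log2 change -0.29, adjusted p = 0.148), without replicate 2 at 24 h (adjusted p = 0.0603), and without replicate 1 (adjusted p = 0.0732) or replicate 2 (adjusted p = 0.0744) at 0 h, and when 0 and 24 h alone were fitted (adjusted p = 0.0731). The 12 and 36 h changes of 0.18 ± 0.23 and -0.19 ± 0.20 did not pass the test.

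**Figure D3:**
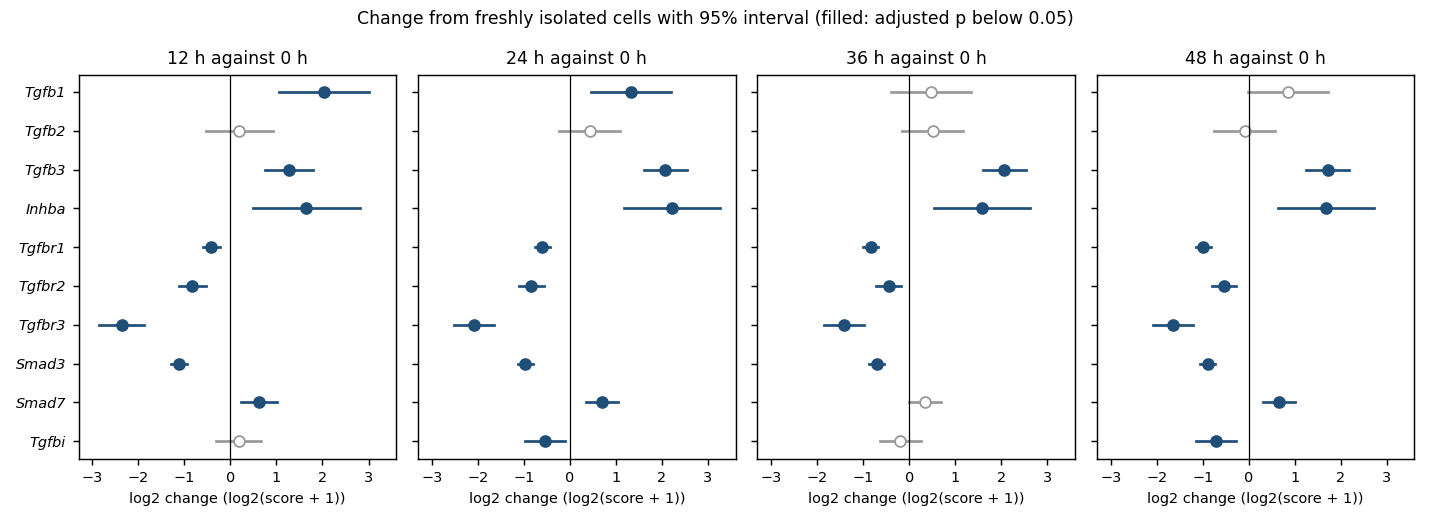
Log2 change from 0 h (horizontal axis, log2(score + 1)) of the 10 genes (vertical axis) at 12, 24, 36 and 48 h, with 95% intervals from limma; filled blue points have an adjusted p below 0.05 and open grey points do not. Tgfb3 and Inhba lie right of 0 and the receptors and Smad3 lie left of 0 in all 4 panels.

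Counted together, 4 of the 10 genes were higher and 4 lower at 12 h, against 29.9% and 28.3% of the 12079 transcripts tested. After 24 h the counts were 4 higher and 5 lower (35.0% and 31.8% of all transcripts), after 36 h 2 higher and 4 lower (36.0% and 34.0%), and after 48 h 3 higher and 5 lower (37.1% and 34.0%). The median log2 change of the 10 genes at 48 h was -0.32, beside 0.03 over all transcripts. The 4 comparisons share the 0 h libraries, and no difference from the shares of all transcripts was tested.

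Between successive culture times fewer members passed the test than against 0 h, and so did fewer of all transcripts. From 12 to 24 h none of the 10 passed the limma test at an adjusted p below 0.05, 2 having an unadjusted p below 0.05, where 4.59% of all transcripts were higher and 3.67% lower. From 24 to 36 h Tgfbr2 (0.39), Tgfbr3 (0.65) and Smad3 (0.26) rose on the log2 scale and Tgfbr1 (-0.24) fell, with adjusted p of 0.0445, 0.0381, 0.0331 and 0.0427, in a background of 10.0% higher and 9.64% lower. With the near-identical replicates 1 and 2 at 36 h averaged as 1 library, a choice made after seeing the data, none of these 4 calls was kept. The limma adjusted p was then 0.0823 to 0.109, at log2 changes of 0.40 for Tgfbr2, 0.69 for Tgfbr3, 0.24 for Smad3 and -0.26 for Tgfbr1. Each of the 4 calls was also lost with one or another library left out, among them every replicate of 24 and 36 h for at least 1 of the 4 genes. From 36 to 48 h none of the members passed, 2 having an unadjusted p below 0.05, and 0% of all transcripts were called higher and 0.0248% lower. From 24 to 48 h, a comparison added after seeing the data, 0 were higher and 1 lower, against 12.2% and 11.7%, in the fit without replicate pairs. Without replicate 3 at 24 h Tgfb2 (adjusted p = 0.0327) and Tgfb3 (adjusted p = 0.0162) were also lower, and without replicate 2 at 48 h Tgfb2 was lower (adjusted p = 0.0475) and Tgfbr3 higher (adjusted p = 0.0213).

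The tissue library, which has no replicate and was not tested, lay within the 0 h range for Tgfb1, Inhba and Tgfbr2. It was above that range for Tgfb2, Tgfb3, Tgfbr1, Tgfbr3 and Tgfbi, at 1.10, 1.29, 1.09, 1.19 and 1.38 times the 0 h mean, and below it for Smad3 and Smad7, at 0.809 and 0.658 times that mean. Its endothelial marker sum was 14622, its epithelial sum 5059, its macrophage sum 1951 and its muscle sum 3666, the last against 250 to 800 at 0 h. The part of these cells in the tissue's scores was not tested.

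Per kb of transcript, the order of the 10 genes at 0 h was Tgfbi (1088), Tgfb3 (1003), Tgfbr1 (859), Smad3 (637), Smad7 (412), Tgfbr2 (304), Inhba (195), Tgfbr3 (189), Tgfb2 (158) and Tgfb1 (42.5). Neighbours whose ranges overlapped were Tgfbi and Tgfb3, and the run from Smad7 to Tgfb2. At 48 h Tgfbr3 had the lowest mean, 60.8 ± 17.4 per kb, but its range overlapped that of Tgfb1 (72.2 ± 17.3 per kb), and without division by length Tgfb1 was lowest.

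Over the 14 mDMC libraries some members moved together and others did not. Pearson's r of log2(score + 1) was 0.962 for Tgfbr2 and Tgfbr3, 0.965 for Tgfbr3 and Smad3, 0.864 for Inhba and Smad7, and 0.812 for Tgfb1 and Smad7. Tgfb2 reached at most 0.536 with any other member (Tgfb3), Tgfb1 and Tgfb3 had 0.3, and Tgfbi had 0.297, 0.275 and 0.274 with Tgfbr2, Tgfbr3 and Smad3, but 0.629 with Tgfbr1 and -0.599 with Smad7. Of all transcripts, those with the highest r were Myh11 (0.978) and Plcb4 (0.976) for Tgfb3, Yju2 (0.948) and Clcf1 (0.942) for Inhba, Mcc (0.971) and Sf3b4 (0.963) for Tgfb1, and Map4k3 (0.884) and Gypc (0.842) for Tgfb2. For the receptors and Smad3 they were Ube2e2 (0.981) and Six5 (0.98) for Tgfbr1, Acap2 (0.971) and Tgfbr3 itself for Tgfbr2, Pnrc1 (0.981) and Tent5c (0.98) for Tgfbr3, and Mindy4 (0.97) and Tent5c (0.967) for Smad3. Smad7 was nearest to Nepro (0.946) and Ccdc86 (0.932), and Tgfbi to Sim2 (0.924) and Sntb1 (0.912). These values describe n = 14 libraries that share 5 time points and the same rank-based scale.

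Other genes of the pathway were taken from a list of 83, of which 73 had a row. The list was drawn up with earlier results of these data known. The numbers called higher and called lower were 35 with 15 after 12 h, 30 with 21 after 24 h, 33 with 19 after 36 h and 34 with 20 after 48 h, when 19 were not called. The shares of all transcripts called higher and lower were 29.9% with 28.3% after 12 h, 35.0% with 31.8% after 24 h, 36.0% with 34.0% after 36 h and 37.1% with 34.0% after 48 h, and the counts by role below stand beside the last of these. The median log2 change of the list at 48 h was 0.34, beside 0.03 over all transcripts. The named genes are those called with the largest change at 48 h in each role. The low-score filter stood at a score of about 21.4, which all 10 members reached in every library. Of the 73 other pathway genes, 5 (Inhbb, Nrros, Fstl3, Cdkn1a and Cdkn2b) reached it in fewer than 2 libraries of either 0 h or 48 h. They entered the fit through the group where they were high, so their calls, which are among the counts, carry no weight, and only their scores are given. Without them 30 of 68 genes were higher and 19 lower at 48 h, with a median log2 change of 0.33.

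Among ligands and the proteins that hold them latent, 3 of 10 were higher and 4 lower at 48 h. These counts include Inhbb and Nrros, whose calls carry no weight. Ltbp2, a matrix protein of the latent TGF-beta binding family that is not known to hold TGF-beta itself, scored 65, 168 and 81 at 0 h and 9610, 9217 and 7424 at 48 h (log2 change 6.49). Inhbb, the activin B subunit, scored 6, 4 and 9 at 0 h and 258, 170 and 209 at 48 h. Nrros, which anchors latent TGF-beta on myeloid cells, scored 217, 208 and 152 at 0 h and 10, 6 and 11 at 48 h, and the part of macrophage RNA in it was not tested. Ltbp4, which binds latent TGF-beta1, fell by 2.56 on the log2 scale, and Ltbp2 and Ltbp4 had limma adjusted p of at most 1.55e-07.

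Of 8 genes for activation of latent TGF-beta, 5 were higher and 3 lower. Thbs1, a matricellular activator, went from 4290, 4048 and 4238 to 70508 in all 48 h libraries, and the integrin subunit Itgb1 from 23242 in all 0 h libraries to 70704 in all cultured ones. Such equal scores were fixed by rank and limit what their fold can show. The integrin subunit Itgav rose 3.03-fold and the matrix protease Mmp2 fell 2.29-fold. Among 6 extracellular antagonists, 4 were higher and 2 lower, the higher ones including Fstl3, whose call carries no weight. Cd109, a membrane-anchored inhibitor of TGF-beta signalling, rose 20.1-fold, and the activin-binding follistatin gene Fst rose 5.41-fold. Fstl3, which also binds activin, scored 18, 29 and 21 at 0 h and 225, 320 and 230 at 48 h. Dcn, a proteoglycan that binds TGF-beta, fell 7.84-fold.

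Of the 4 other receptors measured, 3 were higher and 1 lower. The type I receptor gene Acvrl1 scored 912, 950 and 1090 at 0 h and 5074, 4084 and 4303 at 48 h, a 4.55-fold rise (limma adjusted p = 7.31e-10). The co-receptor gene Eng rose 2.11-fold. The activin receptors moved little, with log2 changes of 0.34 for Acvr1b and -0.34 for Acvr2a. Both Acvrl1 and Eng are known for roles in endothelium, whose marker sum fell at the same time. The part of endothelial RNA in the scores of Acvrl1 and Eng was not tested. Among 7 Smads and cofactors, 1 was higher and 4 lower. The focal adhesion cofactor Tgfb1i1 rose by 3.64, while the acetyltransferase gene Crebbp (-0.83), the Smad anchor Zfyve9 (-0.77) and the ubiquitin ligase gene Trim33 (-0.71) fell on the log2 scale. Crebbp scored 2992 and 2975 in the 2 libraries with more signal on long transcripts, against 1612 and 1486 in the other 0 h libraries.

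Of 12 genes listed as inhibitors of signalling, 8 were higher and 1 lower at 48 h. The Smad-sequestering Pmepa1 rose by 2.21 and the ubiquitin ligase Smurf2 by 1.21 on the log2 scale, and the corepressor Tgif2 fell by 1.48. Usp15 also rose, by 1.48, although it is a deubiquitinase best known for keeping receptors and Smads active. Of 26 target genes, 10 were higher, 5 lower and 11 not called. The higher ones include Cdkn1a and Cdkn2b, whose calls carry no weight. The smooth muscle genes Acta2 and Tagln scored 304 to 545 at 0 h and the table's largest value, 127101, in all 11 cultured libraries, so changes among cultured libraries cannot be seen. The cell cycle inhibitor Cdkn1a scored 16, 17 and 39 at 0 h and 2351, 2460 and 2369 at 48 h. Cdkn2b, of the same function, scored 8, 4 and 1 at 0 h and 218, 201 and 295 at 48 h. Both are also induced by other signals.

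**Figure D4:**
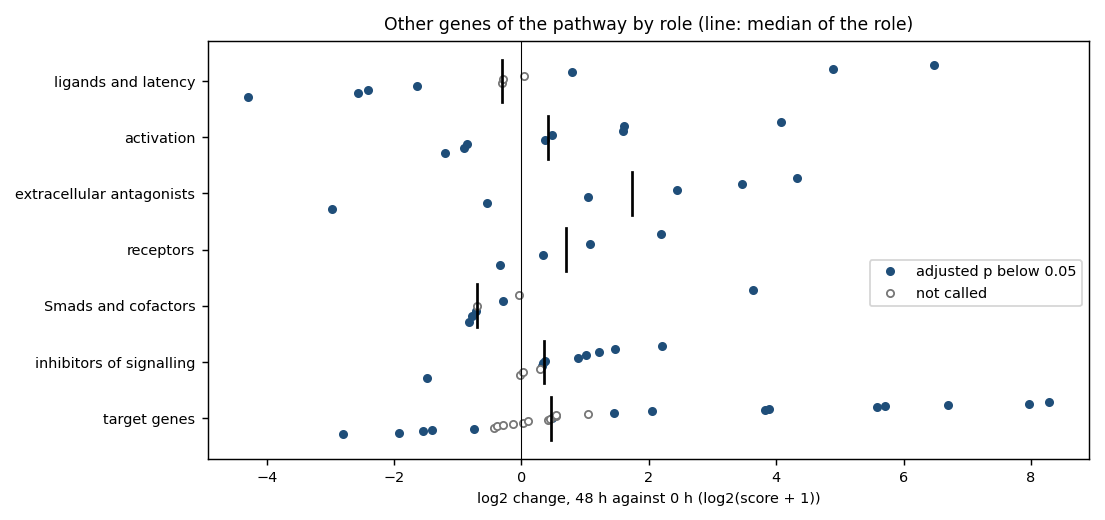
Log2 change at 48 h against 0 h (horizontal axis, log2(score + 1)) of the 73 other pathway genes by role (vertical axis); filled blue points have an adjusted p below 0.05, open points do not, and lines are medians. Genes of every role lie on both sides of 0, and the medians include the 5 genes that passed the filter only in the group where they were high.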

How the data were processed

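The authors aligned RNA-seq reads to the mouse transcriptome (mm10, Ensembl) with bowtie, estimated expression with RSEM and deposited 1 table of 12089 transcripts in 15 libraries. Its values are whole-number normalized scores: the deposited score is neither a count nor CPM, totals lay between 21357605 and 21365980, and 71.9% of ranks held 1 value, so a change in total RNA cannot be seen and depth is unknown. Transcripts were matched to genes with a GRCm38 annotation (11973 of 12089).

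Scores were taken as log2(score + 1). A transcript was fitted if it reached 1 ppm of the total in 2 or more of the 14 mDMC libraries (12079 did). The fit was made with limma 3.58.1 in R 4.3.3, with 1 mean per time and eBayes with an intensity trend. The test was two-sided, and calls used a Benjamini-Hochberg adjusted p below 0.05 over all transcripts. The tissue was left out of the fit. The fit was tested on data simulated with independent normal noise. These lacked the shared ranks of the real scores, so the test does not show how the fit behaves on such scores. Descriptions and plots used Python 3.11.15, pandas 2.3.3 and matplotlib 3.10.9.

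The members and lists were chosen with earlier results of these data known. Named genes are every member, per role of the pathway list the called genes with the largest change at 48 h (up to 4), and the 2 transcripts with the highest Pearson's r for each member. Replicate numbers come from the sample titles. Over 26 pairs with the same number, deviations from the group means correlated at -0.366 to 0.432, and 7 pairs were over 0.1. Only for 24 h against 48 h were all pairs over 0.1 (0.355, 0.399 and 0.349). A fit with the number as a block was therefore added for these times, and only its value for Tgfbr1 is given. The other 24 to 48 h results come from the main fit, which does not use the pairs. The alternatives were another pseudocount, filter, scaling, set of samples, variance model and call rule, the replicate block, and each replicate left out.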

Additional observations from a re-analysis of the deposited data

How the results depend on the processing

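Of the results for single genes under the alternatives, 1213 kept their direction and side of the threshold, 72 were lost, 14 gained and 7 reversed. Of the counts, 535 stayed within 1.5 times and 43 did not. The calls at each of the 4 culture times for Tgfb3, Tgfbr3, and for Tgfbr1, Tgfbr2 and Smad3 apart from the fold rule, held under every alternative run. The cause of the changes below was not tested.

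Reversed changes, all on the log2 scale and all from leaving out 1 library, were Tgfb2 at 12 h (-0.021 without 12 h replicate 1, range -0.021 to 0.411) and at 48 h (0.084 without 48 h replicate 1 and 0.073 without replicate 3, range -0.433 to 0.084). From 24 to 48 h they were Tgfbi (0.077 without 24 h replicate 1, range -0.431 to 0.077), Smad7 (0.077 without 24 h replicate 3 and 0.004 without 48 h replicate 1, range -0.176 to 0.077) and Inhba (0.044 without 48 h replicate 1, range -0.855 to 0.044). None of these was called.

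With calls made by an unadjusted p below 0.05 and a fold change above 2, members lower numbered 2 at 12 h and 1 at each of 24, 36 and 48 h. By that rule 23 pathway genes were higher at 12 h, and 8, 11, 9 and 11 were lower at 12, 24, 36 and 48 h. The same rule left 0 members higher and 0 lower from 24 to 36 h and 0 lower from 24 to 48 h. From 24 to 36 h, trimmed-mean scaling, fitting only the compared times and no intensity trend each left 0 members lower, and averaging 36 h replicates 1 and 2 left 0 higher and 0 lower. With 0 h replicate 3 and 12 h replicate 1 both left out, members higher at 36 h were 4 and members lower from 24 to 36 h were 2.

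Leaving out 1 library gave 2 to 4 members higher at 12 h and 1 to 3 at 36 h. From 12 to 24 h it gave 0 to 1 higher and 0 to 1 lower, from 24 to 36 h 0 to 3 higher and 0 to 1 lower, and from 24 to 48 h 0 to 1 higher and 1 to 3 lower. Where 12 h was left with 1 library, that library was assumed to vary like the other groups.

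Replicate numbers were not taken as pairs in the main fit. With the replicate block, 1 member was higher from 12 to 24 h, Smad7 at 36 h was called (adjusted p = 0.0245) and Tgfbr2 from 24 to 36 h was not (adjusted p = 0.051), and the block changed no other call. Not divided by length, Tgfbr1 (4945) led the members at 0 h in place of Tgfbi. By Spearman's rho, 3 of the 20 nearest transcripts were also nearest by Pearson's r. Depth is unknown, so small differences at low scores cannot be judged against counting error.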
